A study of Rattus norvegicus with 48 samples.

Results

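The transcripts described here belong to 8 genes of glycerolipid metabolism in cerebral endothelial cells (CECs) of the rat. They are Agpat1, Agpat2, Agpat3, Agpat4 and Agpat5, which encode acyltransferases, and Abhd5, Abhd6 and Abhd12, which encode abhydrolase domain proteins. They were chosen by name, as a set that places lipid synthesis against lipid breakdown, out of 32624 features listed, of which 13050 had at least 1 read in each sample and were tested. All 8 passed that filter, with between 470.0 reads (Agpat5) and 4095 reads (Agpat1) in a sample.

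CECs were sorted from the cerebral cortex of male Wistar-Han rats that had free access to food (AL) or had been without food for 1 day (F1), 2 days (F2) or 3 days (F3), all with free access to water. Each group held 3 samples, written i, j and k, from separate experiments, and a sample pooled the cortices of several rats. Between 20718644 and 25960874 reads were assigned to genes per sample, and the 4 technical replicates of a sample differed slightly more than counting noise, with p under 0.05 in 10 of 12 samples. The ratio of chi-square to its degrees of freedom was 1.00 to 1.02 there, against 9.75 to 51.5 between samples of a group. The highest ratios, 48.8 and 51.5, were those of F2 j against F2 i and F2 k. Pecam1, which encodes the CD31 antigen used for the sort, lay between 31655 and 38792 normalized counts in the 12 samples. Levels of genes in sorted cells are averages over the cells collected, so that fewer cells of a kind and less RNA per cell cannot be told apart.

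Phosphatidic acid is the common precursor of triglycerides and of membrane phospholipids. It is made when an acyltransferase of the AGPAT family adds a second fatty acid to lysophosphatidic acid. In the opposite direction, triglycerides stored in lipid droplets are broken down by the lipase Pnpla2, which needs the protein encoded by Abhd5 as its co-activator, while Abhd6 and Abhd12 encode hydrolases that act on monoacylglycerols and lysophospholipids. During a fast, fatty acids released from adipose tissue reach the brain endothelium through the blood.

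The 250 bases that precede the start site in the RefSeq promoter table (build GRCr8) are shown for Agpat2 and Agpat4, which were higher than in AL after 1 and 3 days, and for Agpat1, which was lower after 3 days. They are written from 5′ to 3′ on the strand of the gene, which is the minus strand in each case. Capitals mark matches to the GC box GGGCGG on either strand, a motif known to be bound by Sp1. Each window lies inside the full RefSeq span of its gene, which begins further upstream. The windows are at chr3:29826158-29826407 (Agpat2), chr1:51180972-51181221 (Agpat4) and chr20:4147869-4148118 (Agpat1).
Agpat2: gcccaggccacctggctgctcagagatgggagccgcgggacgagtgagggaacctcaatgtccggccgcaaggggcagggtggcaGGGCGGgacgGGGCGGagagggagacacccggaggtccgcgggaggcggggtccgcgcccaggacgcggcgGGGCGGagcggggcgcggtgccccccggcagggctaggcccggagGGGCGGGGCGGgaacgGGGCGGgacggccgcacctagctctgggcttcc
Agpat4: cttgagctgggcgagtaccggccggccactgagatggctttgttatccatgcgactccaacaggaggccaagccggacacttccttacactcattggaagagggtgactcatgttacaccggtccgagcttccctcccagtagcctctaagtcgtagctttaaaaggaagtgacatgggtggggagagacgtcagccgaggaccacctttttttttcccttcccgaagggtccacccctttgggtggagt
Agpat1: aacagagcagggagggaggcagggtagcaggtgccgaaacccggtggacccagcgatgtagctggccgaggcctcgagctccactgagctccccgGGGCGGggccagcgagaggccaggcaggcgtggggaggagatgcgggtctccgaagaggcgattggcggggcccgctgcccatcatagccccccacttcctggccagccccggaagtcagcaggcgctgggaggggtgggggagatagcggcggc

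The window of Agpat2 held 6 GC boxes, of which 2 overlap, and 78.4% of its bases were G or C. Of 33469 windows of the same length, 30.5% held at least 1 GC box and 0.825% held 6 or more. The window of Agpat4 held none, with 55.6% G or C, and that of Agpat1 held 1, with 71.2%, against a median of 51.2% over all windows. Among the other genes with a window, Abhd5 held 3 GC boxes, Abhd12 held 2, and Agpat3 and Abhd6 held none. The DR1 element, a direct repeat of the nuclear receptor half-site to which PPAR and RXR dimers bind, was in none of the 7 windows, and in 0.0508% of all windows. The half-site AGGTCA itself, in 14.1% of all windows, were found once each for Agpat3 and Abhd5, the E-box CACGTG, in 5.59% of all windows, once for Abhd12, and GTAAACA, a FOXO motif in 3.21% of all windows, in none. Both strands were searched. These matches describe letters in a window and were not tested against the expression of the genes.

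Against AL, 2 of the 8 genes passed the threshold in F1, namely Agpat2 and Agpat4, both higher, where 6.57% of all genes tested passed in either direction and 3.92% were higher. In F2 none of the 8 passed, where 0.920% of all genes did. With edgeR's test 1 of the 8, Agpat2, had an unadjusted p under 0.05 there, as did 13.0% of all genes, and with DESeq2 1 passed, again Agpat2, as did 2.92% of all genes. In F3 4 passed, Agpat2, Agpat4 and Agpat5 higher and Agpat1 lower, where 12% of all genes passed, 6.28% higher and 5.73% lower. A joint test of the 4 groups passed for Agpat2 (adjusted p = 0.0178) and Agpat4 (adjusted p = 0.00651), where 9.98% of all genes passed. Without AL i or AL k the joint test passed for Agpat4 alone. None of the 3 abhydrolase genes passed in any comparison between groups in edgeR's quasi-likelihood test, in which Benjamini-Hochberg adjustment ran over the 13050 genes. At an unadjusted p under 0.05 against AL stood Abhd5 in F1, with 20.8% of all genes, and Abhd5 and Abhd12 in F3, with 26.0% of all genes. Between F3 and F2 all 3 abhydrolase genes stood there, with 22.1% of all genes. Abhd5 and Abhd6 did so between F2 and F1, with 17.4% of all genes, and in the joint test, with 24.8%. DESeq2 called Abhd5 and Abhd6 between F3 and F2, where it passed 11% of all genes.

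**Figure D1:**
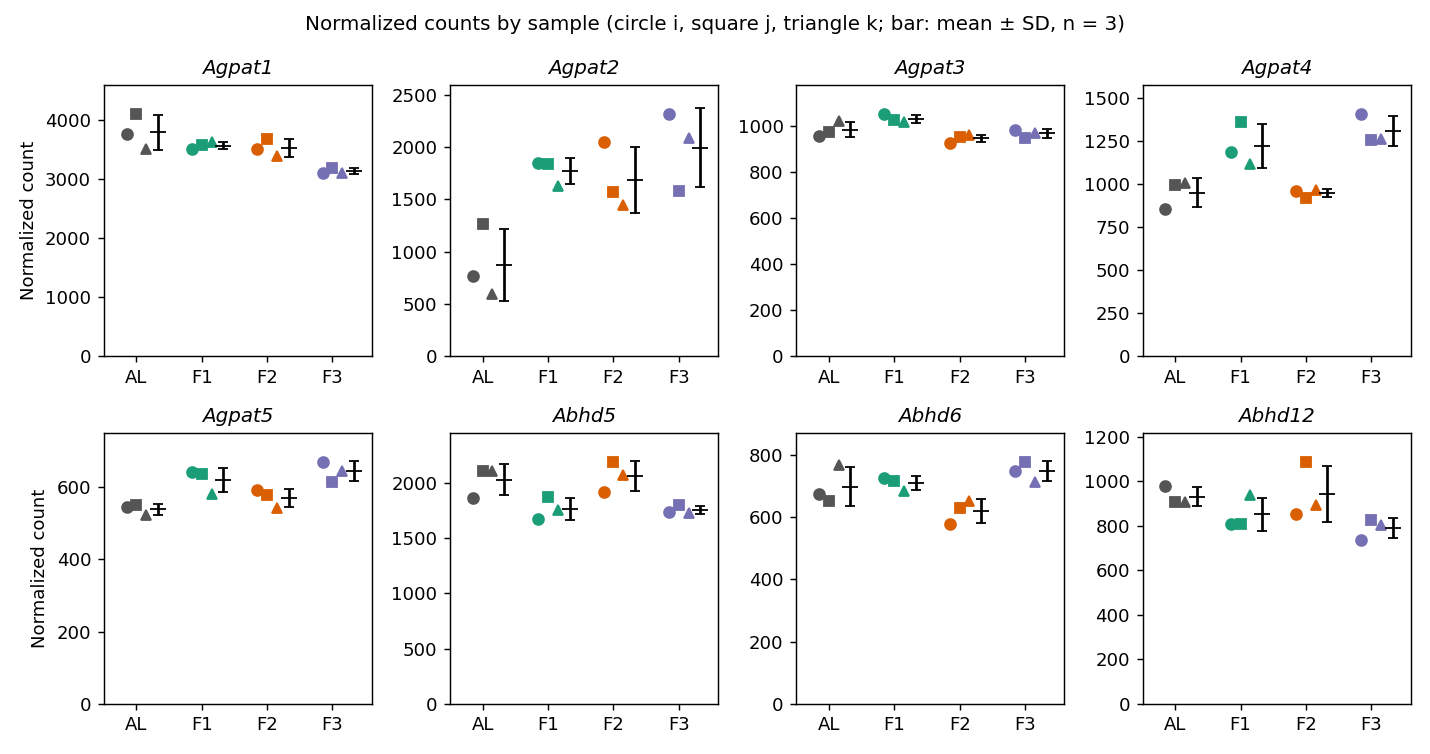
Normalized counts of the 8 genes in each of the 12 samples, on linear axes that start at 0, with the mean ± SD of 3 samples per group as bars and the letter of each sample as the shape of its point. The 3 AL samples of Agpat2 lie between 598 and 1263, below all fasted samples, whereas Agpat4 in F2 lies between 921 and 964, within the range of AL.

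Agpat2 encodes an acyltransferase of the endoplasmic reticulum whose loss causes a generalized lipodystrophy in humans. Its normalized counts were 764, 1263 and 598 in AL samples i, j and k. They were 1853, 1837 and 1627 in F1, 2047, 1569 and 1445 in F2, and 2320.2, 1577 and 2089 in F3. Every fasted sample was thus above every AL sample, and the lowest fasted sample was F2 k. The group means were 875 ± 346 (SD, n = 3) in AL, 1772 ± 126 in F1, 1687 ± 318 in F2 and 1996 ± 380.2 in F3.

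The fold over AL was 2.02 in F1, with a log2 fold change (LFC) of 1.02 ± 0.23 (SE) and an adjusted p of 0.0182. In F2 the fold was 1.93 (LFC 0.95 ± 0.23), and its adjusted p of 0.0759 missed the threshold, although the samples of the groups did not overlap. In F3 the fold was 2.28 (LFC 1.19 ± 0.23, adjusted p = 0.00431). Ranked by LFC from the highest, Agpat2 stood at place 180 of 13050 genes in F1, 175 in F2 and 165 in F3. In order of mean level the groups ran AL, F2, F1 and F3, and no difference between the fasted groups passed the test. The LFC was −0.07 (95% interval −0.55 to 0.40) for F2 against F1, 0.17 (−0.30 to 0.65) for F3 against F1 and 0.24 (−0.23 to 0.72) for F3 against F2.

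The spread among AL samples was wide for Agpat2. Its coefficient of variation was 39.6% in AL, higher than that of 98.4% of the 9459 genes with a mean of at least 100 normalized counts, whose median was 6.61%. In F1 it was 7.11%, near the median of 6.59%. In F2 it was 18.8%, higher than that of 83.2% of these genes, whose median was 10.4%. In F3 it was 19.1%, higher than that of 95.3%, with a median of 5.82%. Without AL j, the highest AL sample, the LFC was 1.37 in F1, 1.30 in F2 and 1.54 in F3, and without AL k, the lowest, it was 0.81, 0.74 and 0.98. Without AL j the F2 difference passed (adjusted p = 0.00616). It also passed with DESeq2 (0.00246) and without a filter on low counts (0.00785). In the other 17 of the 20 settings the F2 difference did not pass. Its adjusted p was 0.158 without AL i, and 0.311 with only the 6 samples compared, a fit in which none of all genes passed. The F1 call was lost without AL i (adjusted p = 0.0772), AL k (0.0598), F1 i (0.0632) or F1 j (0.0710). The F3 call held in each of the 20 other settings and sample sets tried. In the GRCr8 annotation of RefSeq, Agpat2 overlaps Egfl7, a gene of endothelial cells that was not analysed here. Since the strand setting of the counting was not stated, reads from either gene in the overlap may not be told apart, and the part of this in the result was not tested.

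Agpat4 encodes an acyltransferase known to be abundant in brain. Its normalized counts were 854, 995 and 1006 in AL, 1190.0, 1362 and 1117 in F1, 959, 921 and 964 in F2, and 1409, 1256 and 1263 in F3. The F1 and F3 samples all lay above the AL samples, whereas the F2 samples lay within the range of AL. The means were 952 ± 84.7 in AL, 1223 ± 126 in F1, 948 ± 23.5 in F2 and 1309 ± 86.3 in F3.

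Agpat4 was 1.29 times the AL level in F1 (LFC 0.36 ± 0.09, adjusted p = 0.0302) and 1.38 times in F3 (LFC 0.46 ± 0.09, adjusted p = 0.00487). In F2 the LFC against AL was −0.0042, with a 95% interval of −0.20 to 0.19. From F2 to F3 it rose 1.38 times (LFC 0.47 ± 0.09, adjusted p = 0.0127), the one call among the 8 genes in that comparison, where 5.88% of all genes passed. The LFC from F1 to F2 was −0.37 ± 0.09 and missed the threshold (adjusted p = 0.0626), which it passed in DESeq2 (0.0146). F3 and F1, the neighbours at the top of the order, differed by an LFC of 0.10, with an interval of −0.09 to 0.29. The F1 call was lost without AL i (adjusted p = 0.129), AL k (0.0514), F1 i (0.0679) or F1 j (0.152), and the rise from F2 to F3 without F3 i (0.0696). The F3 call against AL held in each of the 20 other settings. In GRCr8 Agpat4 overlaps a long non-coding RNA gene, from which its reads may likewise not be told apart.

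Agpat5 encodes an acyltransferase that has been placed in mitochondria and the endoplasmic reticulum. Its normalized counts were 546, 551 and 522 in AL, 643, 636 and 581 in F1, 591, 579 and 543 in F2, and 671, 616 and 645 in F3. All F1 and all F3 samples were above all AL samples, while F2 overlapped with AL. The LFC against AL was 0.20 ± 0.08 in F1 (adjusted p = 0.143), 0.08 ± 0.08 in F2 (0.696) and 0.26 ± 0.07 in F3 (0.0421). In F3 the level was 1.19 times that of AL. This call lies near the threshold, and it was lost in 9 of the 20 other settings, among them total counts in place of TMM (adjusted p = 0.0911), no filter on low counts (0.0856), and the fits without AL i (0.0951), AL j (0.0855), AL k (0.131), F1 j (0.0604), F3 i (0.160), F3 j (0.0585) or F3 k (0.111). The means in order were 539.5 in AL, 571 in F2, 620.1 in F1 and 644 in F3, and no neighbours in that order differed by a test that passed.

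Agpat1, the other acyltransferase of the endoplasmic reticulum in this family with well-known activity on lysophosphatidic acid, went the other way. In the samples it had 3768, 4102 and 3501 in AL, 3509, 3568 and 3625 in F1, 3505, 3679.5 and 3390.1 in F2, and 3102, 3193 and 3102 normalized counts in F3. The 3 F3 samples were below all samples of the other groups. Agpat1 fell by 17.4% in F3 (LFC −0.28 ± 0.07, adjusted p = 0.0188). In F1 the LFC was −0.09 ± 0.07 (adjusted p = 0.515) and in F2 it was −0.10 ± 0.07 (0.551). The neighbours in order, F3 and F2, differed by an LFC of −0.17, with an adjusted p of 0.160 for that difference. The F3 call was lost without AL i (adjusted p = 0.0505), AL j (0.0676), F3 i (0.0779) or F3 k (0.0633). Agpat1 overlaps Egfl8 in GRCr8, which was not analysed here, so the same limit on strand holds.

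Agpat3 encodes an acyltransferase known to favour polyunsaturated fatty acids. Its level varied least among the 8 genes, between 927 and 1053 normalized counts over the 12 samples, a 1.14-fold range that compares with 3.88-fold for Agpat2. The values were 958, 975 and 1022 in AL, 1053, 1025 and 1016 in F1, 927, 951 and 960.3 in F2, and 984, 948 and 972 in F3. The LFC against AL was 0.07 (95% interval −0.06 to 0.20) in F1, −0.06 (−0.19 to 0.07) in F2 and −0.03 (−0.15 to 0.10) in F3.

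**Figure D2:**
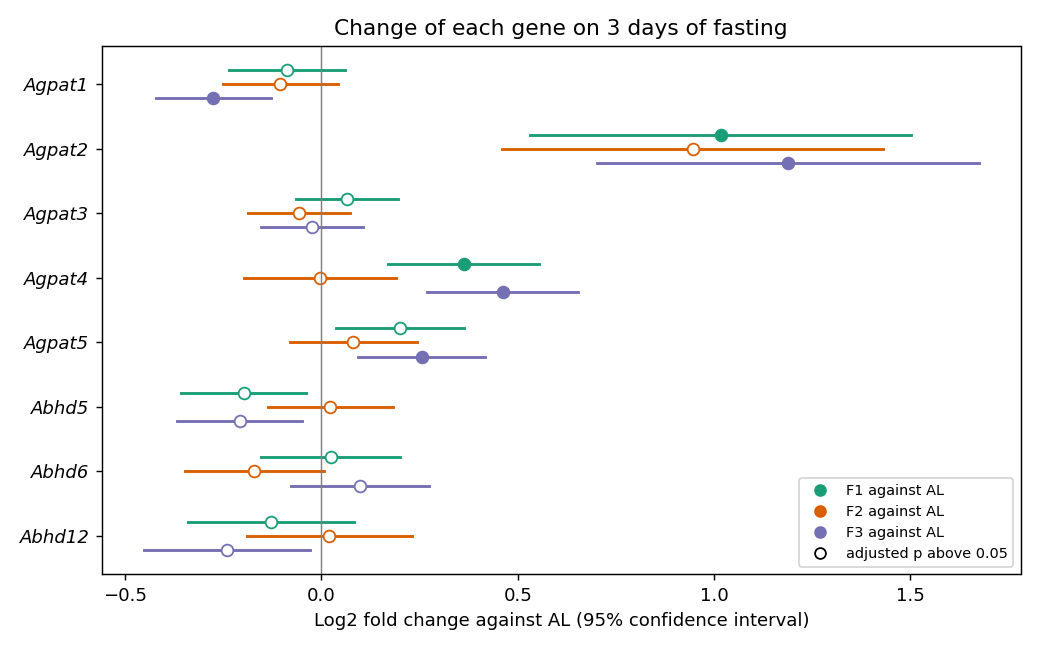
Log2 fold change of each of the 8 genes in F1, F2 and F3 against AL, with its 95% confidence interval as a line and filled points where the adjusted p was at most 0.05. Agpat2 lies at 1.02, 0.95 and 1.19, Agpat4 returns to the AL level in F2, and the 3 abhydrolase genes have open points throughout.

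Abhd5 encodes the co-activator of Pnpla2, also called CGI-58. Its normalized counts were 1869.8, 2115 and 2107 in AL, 1677, 1875 and 1757 in F1, 1922, 2194 and 2071 in F2, and 1742, 1802 and 1729 in F3. The F3 samples lay below all AL samples and below all F2 samples, whereas in F1 the highest sample, F1 j, overlapped with the lowest AL sample. The LFC against AL was −0.20 ± 0.07 in F1 (adjusted p = 0.140), 0.02 ± 0.07 in F2 (0.928) and −0.21 ± 0.07 in F3 (0.0889). In F3 this difference passed the threshold with total counts (adjusted p = 0.0448) and without F2 j (0.0404), where 12.4% and 18.2% of all genes passed.

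Abhd6 encodes a membrane hydrolase of monoacylglycerols, among them an endocannabinoid. Normalized counts of Abhd6 were 674, 652 and 769 in AL, 728, 716 and 686 in F1, 577, 630.1 and 653 in F2, and 749, 779 and 715 in F3. F2 was the lowest group, and none of its samples reached an F1 or F3 sample. The LFC was 0.02 in F1, −0.17 in F2 and 0.10 in F3, and the adjusted p-values against AL were 0.906, 0.404 and 0.498. From F2 to F3 the LFC was 0.27 ± 0.08 (adjusted p = 0.0701, and 0.0392 in DESeq2).

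Abhd12 encodes a lysophosphatidylserine lipase whose loss causes a neurodegenerative disease in humans. Normalized counts of Abhd12 were 980.0, 906 and 907 in AL, 809.9, 808 and 937 in F1, 851, 1088 and 894 in F2, and 738, 825 and 801 in F3. The F3 samples lay below all AL samples. The LFC against AL was −0.13 in F1, 0.02 in F2 and −0.24 ± 0.10 in F3, with adjusted p-values of 0.507, 0.954 and 0.138. The highest sample, F2 j, widened the spread of F2 to a coefficient of variation of 13.4%. In F2 the median over the 9459 genes with a mean of at least 100 normalized counts was 10.4%, and 65.0% of them lay lower than Abhd12. Without F2 j the F3 difference passed (adjusted p = 0.0400), as did 18.2% of all genes, against 12% with all samples. Abhd12 overlaps 2 long non-coding RNA genes in GRCr8.

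The samples of F1 and AL did not overlap for 3 of the 8 genes, where they did not overlap for 28.7% of all genes. For F2 and AL it was 1 gene against 15.5%, and for F3 and AL 6 genes against 35.6%. Between F3 and F2 it was 6 genes against 26.8%, and between F2 and F1 4 genes against 21.8%. No gene of the 8 passed between F2 and F1, where 1.34% of all genes did, though 3 of the 8 and 17.4% of all genes had an unadjusted p under 0.05, and DESeq2 called Agpat4 and 5.34% of all genes. Between F3 and F1 edgeR called none of the 8 and 0.00% of all genes, with 586 genes at an unadjusted p under 0.05, Agpat1 among them. DESeq2 called 24 genes there and none of the 8. The F3 and F1 samples did not overlap for 2 genes, Agpat1 and Agpat3, against 13.0% of all genes.

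The acyltransferase and abhydrolase genes were placed side by side without a test. The median LFC of the 5 acyltransferase genes was 0.20 in F1, −0.0042 in F2 and 0.26 in F3. That of the 3 abhydrolase genes was −0.13, 0.02 and −0.21, while the median of all genes was between −0.0085 and −0.0043. The comparisons share the AL samples. In each sample, the mean log2 CPM of the 5 acyltransferase genes minus that of the 3 abhydrolase genes was also computed, as a description of balance and not of amount. It was −0.03, 0.19 and −0.15 in AL samples i, j and k, 0.48, 0.47 and 0.33 in F1, 0.41, 0.11 and 0.17 in F2, and 0.57, 0.31 and 0.48 in F3. The F1 and F3 samples lay above the AL samples, and 2 of the F2 samples lay below AL j. Without Agpat2 the group means were 0.10 in AL, 0.34 in F1, 0.13 in F2 and 0.32 in F3, so that the means of F1 and F3 stayed above those of AL and F2. Single samples overlapped, with 0.25 in F2 i and 0.24 in F3 j.

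**Figure D3:**
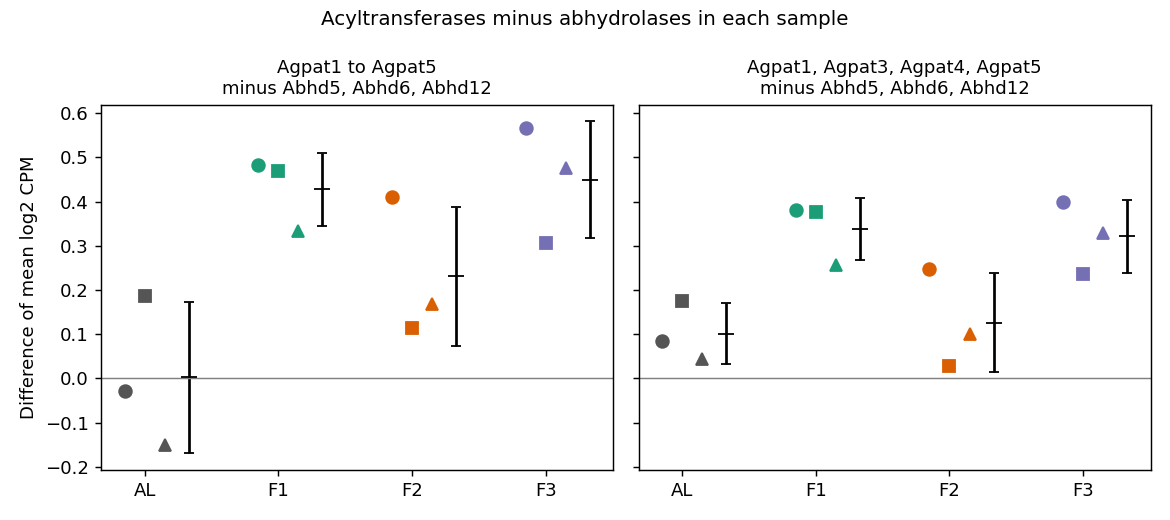
Mean log2 CPM of the acyltransferase genes minus that of Abhd5, Abhd6 and Abhd12 in each of the 12 samples, with Agpat2 (left) and without it (right), and the mean ± SD of 3 samples per group as bars (circle i, square j, triangle k). On the left the group means are 0.0023 in AL, 0.43 in F1, 0.23 in F2 and 0.45 in F3.

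Of the other genes of the pathway, few could be read by name. Symbols could be assigned to 2043 of the genes tested, mostly from the early part of the alphabet. Later ones, such as Slc2a1, Slc38a3 and Slco1a4, came from the study's list of transporters that differed in expression on fasting. Of 6 long-chain acyl-CoA synthetases, which supply the activated fatty acids that acyltransferases use, 5 were tested and 2 passed, Acsl1 and Acsl3, both lower in F1 and F3. Acsl1 had 1239 ± 123 normalized counts in AL, 1006 ± 38.5 in F1, 1269 ± 77.3 in F2 and 968 ± 35.6 in F3. Its LFC was −0.30 ± 0.08 in F1 (adjusted p = 0.0434) and −0.36 ± 0.08 in F3 (0.0118). Acsl3, whose product is found on lipid droplets, had 1866 ± 236 in AL, 1459 ± 99.9 in F1, 1963 ± 80.5 in F2 and 1399 ± 85.7 in F3. Its LFC was −0.36 ± 0.09 in F1 (adjusted p = 0.0375) and −0.42 ± 0.09 in F3 (0.0105), and it rose from F1 to F2 (0.43 ± 0.09, adjusted p = 0.0446). From F2 to F3 both fell, Acsl1 by an LFC of −0.39 ± 0.08 (adjusted p = 0.0167) and Acsl3 by −0.49 ± 0.09 (0.0116), where 5.88% of all genes passed. Acsl4, Acsl5 and Acsbg1 passed in no comparison with AL. Acsl1 and Acsl3 were thus lower in the groups in which Agpat4 was higher, and in F2 their LFC against AL was 0.03 and 0.07, neither of which passed.

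Of 17 other abhydrolase domain genes 15 were tested, and none passed against AL on any day in edgeR or in DESeq2, with 1, 2 and 5 of them at an unadjusted p under 0.05 in F1, F2 and F3, where 20.8%, 13.0% and 26.0% of all genes stood. Their median LFC was 0.02, 0.05 and −0.02. Agps, of ether lipid synthesis, and Agk, an acylglycerol kinase, were the 2 genes tested of 10 listed around these acylation steps. They passed on no day, nor did Acp6, a lysophosphatidic acid phosphatase, or Bscl2, which encodes the lipid droplet protein seipin. None of these 4 was called by DESeq2, and at an unadjusted p under 0.05 stood only Acp6 in F2 and Bscl2 in F3. The other genes of lipolysis and lipid droplets, and all those of triglyceride and phospholipid synthesis listed, were not analysed here.

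Genes whose levels followed those of the called members most closely were sought among 1263 genes with a symbol and a mean of at least 100 normalized counts, by Pearson's r of log2 CPM over the 12 samples, which share their groups. For Agpat2 they were Akap12 (r = 0.95), B4galt4 (0.94), Slc2a1 (0.94), Adgrg1 (0.93) and Alas1 (0.93). Slc2a1 encodes GLUT1, the glucose transporter of the blood-brain barrier. For Agpat4 they were Capn2 (0.97), Bcar3 (0.96), Angptl4 (0.94), Bet1l (0.93) and Adamts9 (0.93). Angptl4 encodes a secreted inhibitor of lipoprotein lipase and is a known PPAR target. Agpat5 was followed by Ankrd46, Capn2, Ankrd13d, Adgrg1 and Slc38a3 (each 0.92), and thus shared Capn2 with Agpat4 and Adgrg1 with Agpat2. For Agpat1 the closest were Acat2l1 (0.91), Anxa6 (0.91), Acvrl1 (0.90), Calr (0.88) and Akirin1 (0.84). One gene in 10 reached an r of 0.60 with Agpat2 and 0.73 with Agpat4. Slc2a1 and Slc38a3 were among the genes searched only through the study's list of transporters that differed on fasting.

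Markers of other cells were counted beside these genes. The summed level of Abcc9, Anpep and Acta2, 3 of 8 markers of pericytes and smooth muscle, was 1908 to 4372 normalized counts in AL, 2066 to 2365 in F1, 2451 to 4744 in F2 and 1689 to 4443 in F3. Of 7 microglial markers 6 were tested, and their sum was 56.7 to 134 over all samples. Within that sum the markers did not move alike in F3. The LFC was −1.08 for Ccl4, whose F3 samples lay below all AL samples, and 1.13 for C1qc. Neither passed in edgeR's test (adjusted p = 0.106 and 0.228). Aldoc, 1 of 4 astrocyte markers, had 1825 to 2155 in AL and 1545 to 1588 in F3. Adipoq, 1 of 2 adipocyte markers, had 14.7 to 34.8 over all samples, and Alas2, 1 of 2 of red blood cells, 36.1 to 110.3. Neuronal and oligodendrocyte markers were not analysed here. The summed ranges overlapped between AL and each fasted group except for Aldoc in F3. Abcc9 made up most of the mural sum, and Acta2 by itself was higher in all F2 samples (236 to 366) than in AL (130.4 to 211), with an LFC of 0.83 that did not pass (adjusted p = 0.238). Over the 12 samples, Pearson's r of log2 CPM with Aldoc was 0.80 for Abhd12 and 0.70 for Agpat1. For the remaining members it lay between −0.52 (Agpat5) and 0.41 (Abhd5). Aldoc was not the only marker with such values. With Ccl4, a gene of low counts, r was 0.74 for Abhd12, 0.70 for Abhd5, 0.64 for Agpat1 and −0.71 for Agpat4. With Slco1a4 it was −0.91 for Agpat4. The r of all genes with these markers was not computed, so how usual such values are cannot be told. The part of these markers in the results was not tested. Of 7 endothelial markers 3 were tested. Pecam1 passed on no day, though its F1 samples were all above its AL samples (LFC 0.16, adjusted p = 0.223). Abcb1a did not pass on any day in edgeR's test (LFC −0.0050 in F1 and 0.0094 in F3), while Slco1a4 fell in F1 (LFC −0.36, adjusted p = 0.0340) and F3 (−0.43, adjusted p = 0.00846), the groups in which Agpat4 rose. Slco1a4 could be named only through the study's list of transporters that differed on fasting in these same samples. Its fall is therefore no independent reading of the endothelial markers.

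**Figure D4:**
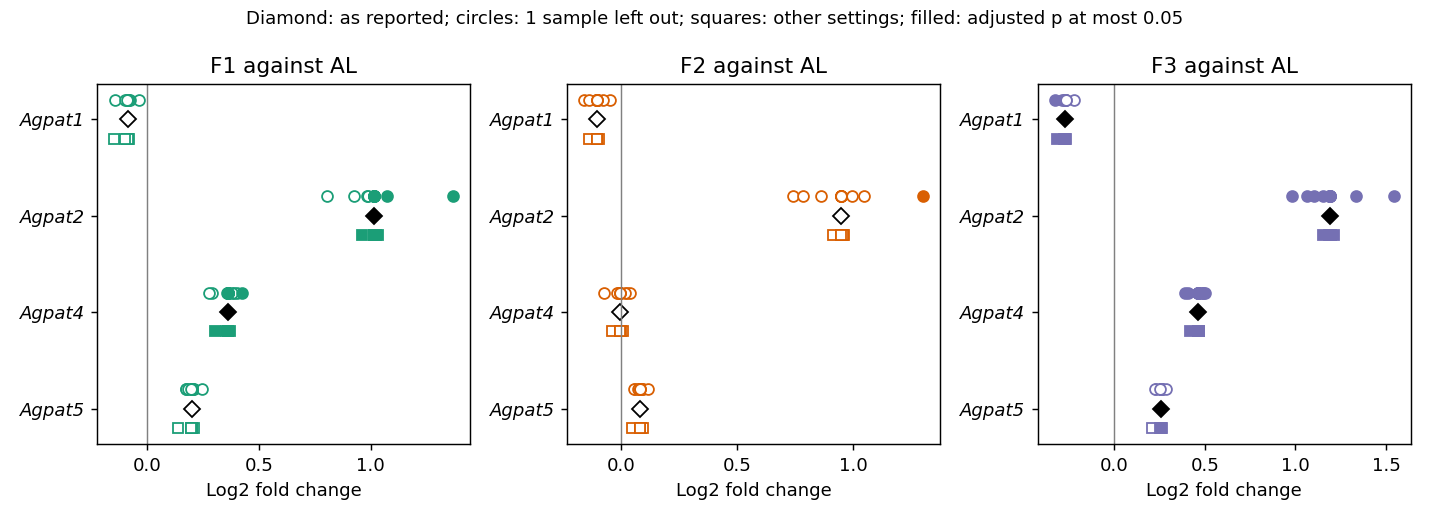
Log2 fold change of Agpat1, Agpat2, Agpat4 and Agpat5 against AL as reported (diamonds), with 1 sample left out (circles) and under other settings (squares), filled where the adjusted p was at most 0.05. In F3 every point of Agpat2 and Agpat4 is filled, with Agpat2 between 0.98 and 1.54 over the samples left out, while those of Agpat1 and Agpat5 are filled in part.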

How the data were processed

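Polyadenylated RNA of CECs, depleted of CD11b cells and then selected for CD31, was sequenced in 4 technical replicates of each of 12 samples. The authors demultiplexed the reads with bcl2fastq 2.18.0.12, trimmed and filtered them, mapped them to Rnor_6.0 (Ensembl annotation) with STAR, kept those with a single match, and counted exonic reads with HTSeq 0.5.3. The deposited values are raw counts, and the strand setting of the counting was not found in the sources used here. The library kit marks strand.

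Counts of technical replicates were added up, and the groups are those of the labels. For technical replicate d of F1 sample k the labels conflict, and it was kept in F1. It differed from the others of its sample by no more than counting noise, and leaving it out was an alternative. Genes with at least 1 read in each sample were tested in R 4.3.3 with edgeR 4.0.16 (quasi-likelihood test, TMM, 1 model of 4 group means), with Benjamini-Hochberg adjustment over these genes and a threshold of 0.05. A normalized count is the count per TMM-scaled library size, set to the mean library. Log2 CPM used a prior count of 2. The test was also run on simulated data in which a gene had the same spread in all groups. In the real data F2 was wider, with a median coefficient of variation of 10.4% against 6.61% in AL, which that check does not cover. DESeq2 1.42.0 and other scalings, filters, sample sets and a block for the sample letter were alternatives. Symbols came from the gene tables of the study, which were held here in part. All 8 genes matched RefSeq, and 7 had an entry in the promoter table, whose GRCr8 coordinates differ from the build of the counts. Without gene lengths, levels were not compared between genes.

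Every one of the 8 genes was named, with genes of the pathway lists that passed against AL and the 5 genes closest to each called member. The members and lists were chosen with earlier results of these data known.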

Additional observations from a re-analysis of the deposited data

Results flagged for a closer look

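Agpat4 was singled out because its fold change over AL differed between 2 days of fasting by a test of the difference itself. It was 1.29 times the AL level in F1 and 1.38 times in F3, while in F2 its LFC was −0.0042. The difference between F3 and F2 was 0.47 ± 0.09 on the log2 scale (edgeR's quasi-likelihood test, adjusted p = 0.0127), with all 3 F3 samples above all 3 F2 samples. It held in 19 of the 20 other settings and was lost without F3 i (0.41, adjusted p = 0.0696).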

How the results depend on the processing

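Over 20 other settings and 800 values of single genes, with F3 against F1 left out, 752 kept their direction and their side of the threshold. Of the rest, 22 lost the threshold, 9 gained it and 17 turned their sign. Most of the 800 values had not passed as reported, and so could not lose the threshold. Agpat5 in F3 lost it in 9 of 20 settings. Agpat1 in F3, Agpat2 in F1 and Agpat4 in F1 lost it in 4 of 20 each, and Agpat4 between F3 and F2 in 1 of 20. None of those that turned had passed as reported, and the largest of their LFCs as reported was 0.07 in size. With total counts in place of TMM the LFC was −0.038 for Abhd6 in F1, −0.011 for Abhd5 in F2, −0.014 for Abhd12 in F2 and 0.0077 for Agpat1 between F2 and F1, and without a filter it was 0.0074 for Agpat4 in F2. With 1 sample left out, it ranged from −0.031 to 0.094 for Abhd6 in F1, from −0.031 to 0.071 for Abhd5 in F2, from −0.094 to 0.090 for Abhd12 in F2, from −0.074 to 0.038 for Agpat4 in F2, from −0.045 to 0.00041 for Agpat3 in F3, and, between F2 and F1, from −0.049 to 0.010 for Agpat1 and from −0.23 to 0.029 for Agpat2.

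The number of the 8 genes that passed was 1 in place of 0 in F2 against AL both with DESeq2 and without a filter, 1 in place of 0 between F2 and F1 with DESeq2, 3 in place of 1 between F3 and F2 with DESeq2, and 4 in place of 2 in the joint test with DESeq2 or with total counts. In these fits DESeq2 passed 2.92%, 5.34%, 11% and 18.1% of all genes, the fit without a filter 1.04%, and total counts 10.5%. Without a filter 3 in place of 4 passed in F3, with 7.84% of all genes. With 1 sample left out, the number ranged from 0 to 2 in F1, 0 to 1 in F2, 2 to 6 in F3, 0 to 1 between F3 and F2, and 1 to 3 in the joint test, with fewer samples in each fit. The share of all genes ranged over the same fits from 2.32% to 11.2% in F1, 0.290% to 1.18% in F2, 5.99% to 18.2% in F3, 1.11% to 5.72% between F3 and F2, and 5.68% to 13.6% in the joint test. The cause of the other changes was not tested.

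Samples with the same letter deviated together weakly at most (r from −0.11 to 0.21 over 18 pairs, median 0.05, 7 of them over 0.1). Over 36 pairs with different letters r ran from −0.25 to 0.28, with a median of −0.07 and 8 over 0.1. Ranges that overlap in this way cannot decide whether the letters pair the samples. With the letter as a replicate block, 2 genes passed in F1 (5.73% of all genes), 0 in F2 (0.95%) and 4 in F3 (11.5%). Without the block the same 2, 0 and 4 genes passed. The joint test with the block passed 3 in place of 2, with Abhd5 added (8.88% of all genes). Against AL, the LFC of Agpat2 with the block was 1.03, 0.96 and 1.21. With 3 samples per group, differences inside the intervals given could not be seen. Intervals cover the spread between these samples.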
